A study of Mus musculus with 2 samples.

Results

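Hepcidin, the liver hormone that holds iron inside cells, and the genes that sense, carry, store and export iron were read in livers of fibrotic mice given recombinant TSG-6 or PBS. The 10 genes were the hepcidin genes Hamp and Hamp2, the BMP target Id1, the ligands Bmp2 and Bmp6, the transferrin receptors Tfr2 and Tfrc, the iron exporter Slc40a1 (ferroportin), the ferritin heavy chain Fth1 and transferrin (Trf). Their probes were all non-control probes whose transcript accession belongs to one of these genes in RefSeq: 13 probes on 22 spots, for 10 of the 20284 genes on the array. The first pool held liver RNA of male C57BL/6 mice with fibrosis 2 weeks after intravenous recombinant TSG-6 (labelled Rh_TSG-6), which is secreted at sites of inflammation and binds hyaluronan. The second pool held the same tissue of fibrotic mice given PBS, the vehicle. Each pool mixed the RNA of 3 mice in equal parts and was read on 1 one-colour Agilent array, both on 1 slide. How the fibrosis was induced, the TSG-6 dose and the age of the mice are not given in the sources used here, and both pools were fibrotic.

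Hepatocytes secrete hepcidin into the blood, where it binds ferroportin on macrophages, enterocytes and hepatocytes and causes its breakdown, so that iron stays in the cell. Iron raises hepcidin through BMP ligands, made largely by the sinusoidal endothelium of the liver, which act on hepatocyte receptors and SMAD proteins; Id1 and Smad7 are other targets of the same signal. Inflammation raises hepcidin through interleukin-6 and the transcription factor STAT3. Transferrin carries iron in plasma, Tfrc takes it into cells, Tfr2 senses its load, and ferritin stores what is not used.

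The proximal promoters of both hepcidin genes are printed because these promoters carry almost the same sequence but differ inside a regulatory element. The probes of the genes also differed in these pools. The stretches are the 150 bases before the RefSeq transcript start, on the minus strand of chromosome 7 in GRCm38.p6, chr7:30944030-30944179 for Hamp and chr7:30924182-30924331 for Hamp2. The first run of capitals marks the place of GGCGCC, the BMP-responsive element known from hepcidin promoters, and the second marks TTCNNNGAA, the general form of a STAT binding sequence.
Hamp: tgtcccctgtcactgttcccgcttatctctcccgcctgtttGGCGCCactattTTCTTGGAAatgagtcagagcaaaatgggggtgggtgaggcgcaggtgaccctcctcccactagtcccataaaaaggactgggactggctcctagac
Hamp2: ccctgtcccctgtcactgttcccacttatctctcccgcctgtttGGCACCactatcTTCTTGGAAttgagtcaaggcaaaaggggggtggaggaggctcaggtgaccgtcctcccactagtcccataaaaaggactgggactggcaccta
Aligned without a gap, 135 of 147 bases were the same (91.8%). In Hamp, GGCGCC began 109 bases before the transcript start. Hamp2 has GGCACC at the aligned place, 106 bases before its start, which is the substitution G4A counted from 1 at the first letter of the 6-letter element, Hamp first. The 9 letters of the STAT-type sequence were identical in both genes, beginning 97 bases before the start in Hamp and 94 in Hamp2. Searched on both strands from 250 bases before to 50 after the start, GGCGCC was present in 11.9% and TTCNNNGAA in 8.30% of 32851 RefSeq promoter windows. Of the 10 genes, 6 had promoter entries; Id1, Bmp2, Slc40a1 and Trf had none. Among Bmp6, Tfr2, Tfrc and Fth1, GGCGCC was found in 1 of the 2 Tfrc windows, 89 bases before the start, and TTCNNNGAA in none. A match of letters describes the sequence and does not show that a factor binds there. Any link between the substitution and the difference of the probes in these pools was not tested.

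Signals below are the scanner software's processed signals, and levels are log2 signals relative to the 75th percentile of the array, a signal of 2476 on the TSG-6 array and 3158 on the PBS array. Differences are the TSG-6 level minus the PBS level. With 1 array of pooled RNA per group no test was possible, every difference is that between these pools, and genes were counted by a size rule of 2-fold. Pooling hides the spread between mice. Noise between spots was read from 327 probes printed on several spots, whose log2 differences had a pooled SD of 0.13 within a probe. This SD does not cover noise from labelling and hybridization, nor the choice of scaling. None of the 22 spots was saturated. The software's own error was at most 10.2% of the signal for spots well above background on both arrays. For the dimmest Tfrc probe it was 17.4% for the PBS spot and 25.1% for the TSG-6 spot, which was not well above background. Levels of different probes are not comparable with each other. Of the 10 genes, 9 were measured on both arrays. The single Slc40a1 spot had an outlier flag on the PBS array. In whole liver, fewer cells of a type and less RNA per cell cannot be told apart.

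Hamp2 stood apart from the other genes: it was 2.85-fold higher in the TSG-6 pool, while Hamp differed by 1.22-fold. It was the 1 gene of the 9 measured that passed 2-fold upward, where 2.94% of all 15151 measured genes did. None passed 2-fold downward, against 4.29% of all measured genes. Of the 9 genes, 6 were above 0 and 3 below, with a median log2 difference of 0.23, against 0.08 for all measured genes.

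**Figure D1:**
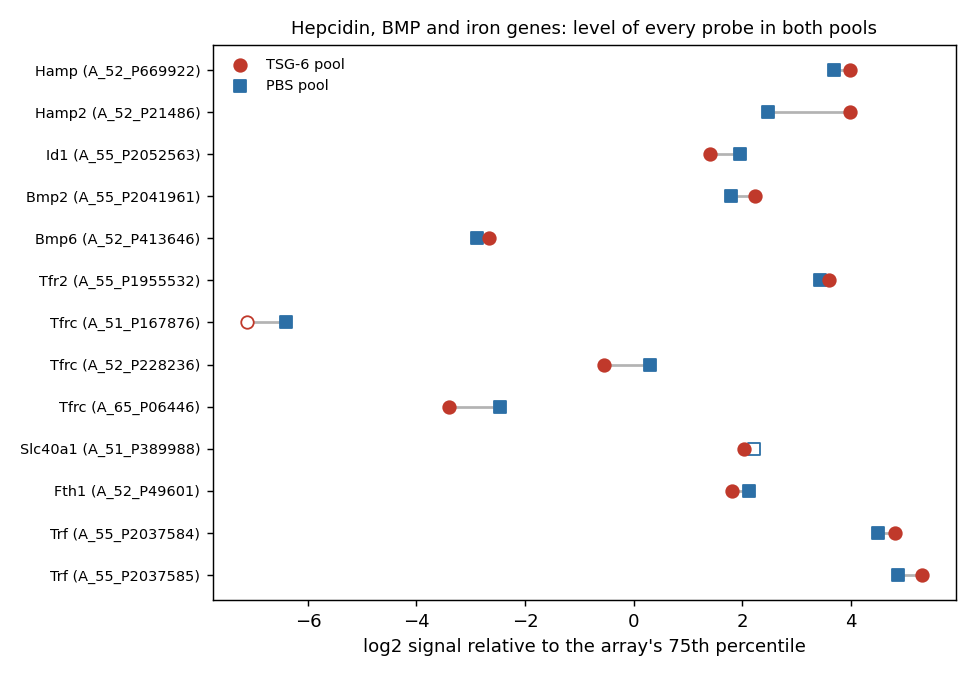
Level of each of the 13 probes (log2 signal relative to the 75th percentile of the array) in the TSG-6 pool (circles) and the PBS pool (squares), 1 array each. Open symbols mark a spot with an outlier flag (Slc40a1, PBS) or not well above background (1 Tfrc probe, TSG-6); the Hamp2 pair is the widest apart, at 3.99 in the TSG-6 pool and 2.48 in the PBS pool.

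Hamp encodes hepcidin itself. Its probe gave a signal of 39116 in the TSG-6 pool and 41005 in the PBS pool, levels of 3.98 (TSG-6) and 3.70 (PBS). The difference of 0.28 lay inside the range of the 8 measured hepatocyte markers, 0.24 to 0.43, and 29.3% of all measured genes were at least as much higher. Its direction depended on scaling: the difference was -0.02 after quantile normalization and -0.11 after spike-in scaling, with a highest value of 0.57 over 12 alternatives. Set against the median of all measured genes, Hamp was between 0.01 and 0.23 above it in all 13 ways of processing.

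Hamp2 encodes the second mouse hepcidin, whose overexpression in mice did not lower iron as that of hepcidin does. Its probe gave a signal of 39400 in the TSG-6 pool and 17632 in the PBS pool, levels of 3.99 (TSG-6) and 2.48 (PBS). The TSG-6 pool was thus the higher by 1.51, a difference that 140 of the 15151 measured genes (0.924%) reached or exceeded. Under the 12 alternatives it was past 2-fold in each, with its lowest value, 1.12, after spike-in scaling. The difference of Hamp2 exceeded that of Hamp by 1.23 on the log2 scale, or 2.34-fold. Only normexp background correction (1.24), loess (1.28) and quantile normalization (1.32) could change this value. The other alternatives move both genes by the same constant or leave their single spots as they are, so they do not test it. Both genes rest on 1 spot per array. They are paralogues and probe sequences were not used here, so how far each probe also binds the other transcript was not tested.

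Mouse Hamp2 is also expressed in pancreas, so exocrine pancreas markers are given beside it. All 12 were well above background in the PBS pool and 8 in the TSG-6 pool, with flagged spots kept. Prss2 (trypsinogen) was 9.55-fold lower, Ctrb1 5.30-fold lower and Cela1 3.30-fold lower in the TSG-6 pool, while Cela2a was 2.44-fold higher. Prss2 and Ctrb1 had levels of -6.83 and -6.05 in the TSG-6 pool, near the lowest detected level of that array, -7.06. Over the alternatives their log2 differences, -3.26 and -2.41 as reported, shrank to as little as -1.44 and -1.19. Cela2a passed 2-fold in 11 of the 13 ways of processing. The lipase Pnlip was lower by at least 7.08-fold, Reg1 by at least 3.45-fold, Cpa1 by at least 2.95-fold and Cpb1 by at least 1.25-fold. The bounds for genes above background on 1 array set the bright level against the lowest level detected on the dim array. The markers summed to 6.62 times the 75th percentile in the TSG-6 pool and 6.12 times in the PBS pool. That sum was mostly the amylase Amy2a5, whose flagged spot had levels of 2.58 in the TSG-6 pool and 2.17 in the PBS pool. Of the 7 pancreas markers measured on both arrays, 6 were below 0 and 1 was above it. The part of pancreas RNA in the Hamp2 difference was not tested.

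Id1, an inhibitor of basic helix-loop-helix factors and a direct BMP target, went the other way. Its signal was 6547 in the TSG-6 pool and 12228 in the PBS pool, levels of 1.40 (TSG-6) and 1.95 (PBS), so that it was 1.46-fold lower. The difference of -0.55 ran from -0.95 to -0.26 over the alternatives and stayed below 0 in all 12, short of 2-fold in each. Id1 was 0.58 to 0.63 below the median of all genes. Against Hamp it differed by -0.83, with a range of -0.83 to -0.60. Of all measured genes, 11.3% were at least as much lower.

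The BMP ligands of the set were near or above their PBS levels. Bmp2, which endothelial cells of the liver produce, had a signal of 11630 in the TSG-6 pool and 10902 in the PBS pool. Its levels were 2.23 (TSG-6) and 1.79 (PBS), a difference of 0.44 that stayed above 0 in all 12 alternatives, from 0.05 to 0.73. Bmp6, the main endothelial ligand that follows liver iron, had a signal of 393 in the TSG-6 pool and 429 in the PBS pool. Its difference was 0.23, with levels of -2.65 (TSG-6) and -2.88 (PBS), and it turned to -0.17 with spike-in scaling. Neither ligand approached 2-fold. Markers of the sinusoidal endothelium had a median difference of 0.23 over 10 measured genes, with 0 past 2-fold in either direction. They summed to 61.3 times the 75th percentile in the TSG-6 pool and 53.6 times in the PBS pool over 12 probes, all above background on both arrays. The part of this shift in the Bmp2 and Bmp6 values was not tested.

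Tfrc, the transferrin receptor that takes iron into cells, had the lowest difference of the 9 measured genes and was read by 3 probes. The probe with 10 spots gave signals from 1368 to 1899 with a median of 1725 in the TSG-6 pool, and from 3564 to 4429 with a median of 3833 in the PBS pool. All 10 spots of the TSG-6 array lay below all 10 of the PBS array, also as levels, at -0.55 ± 0.14 for TSG-6 against 0.30 ± 0.11 for PBS (SD over 10 spots of 1 array, no measure of the spread between mice). This separation describes repeat spots of 1 probe, and the share of other probes that separate in this way is not given here. The difference was -0.85. A second probe gave signals of 235 in the TSG-6 pool and 575 in the PBS pool, a difference of -0.94. The third, dim probe was above background in the PBS pool only, with a bound of at least 1.58-fold lower for the TSG-6 pool. The 3 probes thus ran the same way. Tfrc stayed below 0 in all 12 alternatives, from -0.56 to -1.24, and passed 2-fold with spike-in scaling alone. Of all measured genes, 5.79% were at least as much lower.

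**Figure D2:**
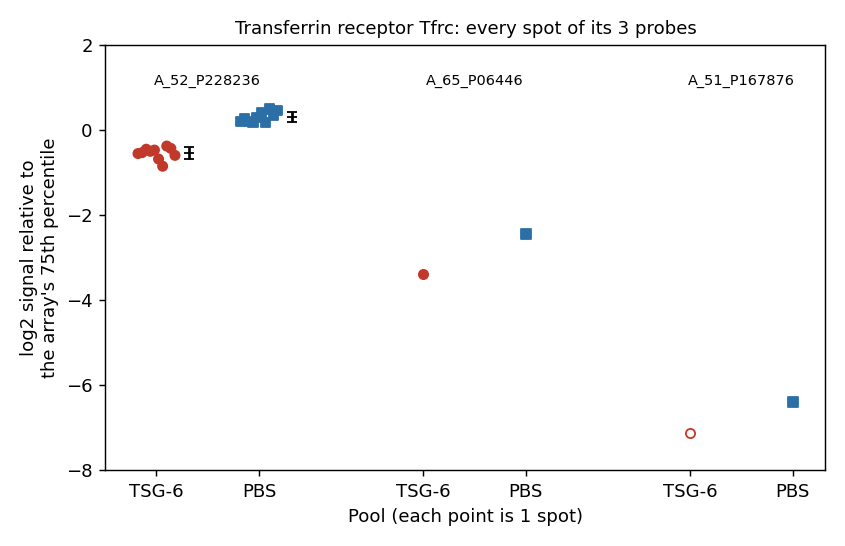
Every spot of the 3 Tfrc probes as log2 signal relative to the 75th percentile of the array, TSG-6 (circles) left of PBS (squares) for each probe, with mean and SD over the 10 spots of the first probe. The open circle was not well above background; for the first probe the highest TSG-6 spot was -0.38 and the lowest PBS spot 0.17.

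Tfrc is most abundant in erythroid precursors and in dividing cells, so markers of both are given beside it. Among 8 measured erythroid and red cell markers, 2 were past 2-fold higher and 0 lower: the carbonic anhydrase Car1 differed by 2.36 and the transcription factor Klf1 by 2.01. Alas2, the erythroid enzyme of haem synthesis, differed by 0.85, while Gata1 (-0.23), the anion exchanger Slc4a1 (-0.14) and the globin Hba-a1 (-0.13) were below 0. Epb42 and Rhag were not above background on either array. The erythroid markers summed to 27.2 times the 75th percentile in the TSG-6 pool and 26.6 times in the PBS pool over 11 probes. That sum was mostly globin and so says little about precursors. Hba-a1 had levels of 3.96 (TSG-6) and 4.08 (PBS), and the flagged spot of the globin Hbb-bt 2.47 (TSG-6) and 2.78 (PBS). Of 10 dividing cell markers, 0 were 2-fold higher and 4 were 2-fold lower, namely Mcm2 (-1.74), Mcm5 (-1.63), Aurkb (-1.21) and Cdk1 (-1.16). The 3 probes of Cdk1 ran from -1.16 to 0.44. The 10 markers summed to 11.3 in the TSG-6 pool and 15.6 in the PBS pool, in the same unit. Their part in the Tfrc difference was not tested.

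Tfr2, the hepatocyte receptor that senses loaded transferrin and takes part in hepcidin control, hardly differed. Its signal was 29853 in the TSG-6 pool and 34191 in the PBS pool, levels of 3.59 (TSG-6) and 3.44 (PBS). The difference of 0.16 turned below 0 in 3 alternatives, quantile (-0.11), loess (-0.07) and spike-in scaling (-0.24). The difference of Tfrc minus that of Tfr2 lay between -1.06 and -0.75 over the 13 ways of processing.

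Transferrin, the plasma carrier, was read by 2 probes that gave signals of 98047 and 69732 in the TSG-6 pool and 92440 and 71774 in the PBS pool. Its brighter probe had levels of 5.31 in the TSG-6 pool and 4.87 in the PBS pool, a difference of 0.44, and the other differed by 0.31. With quantile normalization the difference was -0.06. Fth1, the ferritin chain that oxidises iron for storage, had a signal of 8686 in the TSG-6 pool and 13697 in the PBS pool. Its levels were 1.81 (TSG-6) and 2.12 (PBS), and the difference of -0.31 kept below 0 in all 12 alternatives, from -0.70 to -0.02. Slc40a1, the iron exporter that hepcidin removes from the cell surface, could be given only with its flagged PBS spot kept. Its signal was then 10121 in the TSG-6 pool and 14729 in the PBS pool, levels of 2.03 (TSG-6) and 2.22 (PBS) and a difference of -0.19. Kupffer cells, which export iron from old red cells through Slc40a1, had markers with a median difference of 0.17 over 10 genes, 1 of them (Timd4, 2.39-fold higher) past 2-fold. These markers summed to 114 in the TSG-6 pool and 103 in the PBS pool, in multiples of the 75th percentile.

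**Figure D3:**
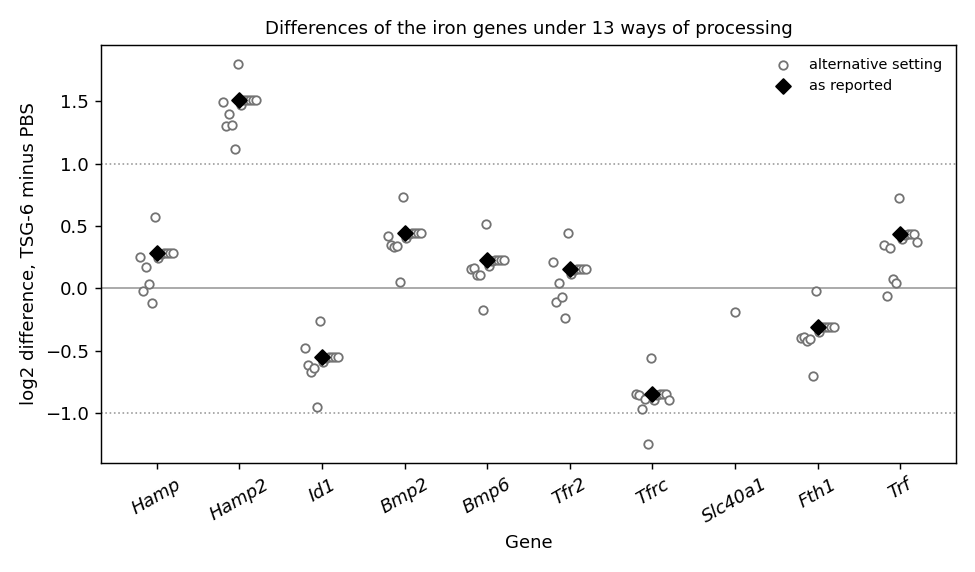
Log2 difference, TSG-6 minus PBS, of each gene as reported (diamonds) and under the alternatives (open circles); dotted lines mark 2-fold. Hamp2 stays above the upper line in every setting and Tfrc crosses the lower line in 1, at -1.24; Slc40a1 has a value only with flagged spots kept.

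The labelled tissue was checked against hepatocyte markers: all 10 were well above background on both arrays, with a median difference of 0.34 over the 8 unflagged ones and sums of 234 in the TSG-6 pool and 188 in the PBS pool. Markers of stellate cells and myofibroblasts were lower, with a median of -0.58 and 3 of 9 past 2-fold lower (Acta2, Des and Tagln). Outlier flags covered 6.44% of non-control spots on the TSG-6 array and 3.40% on the PBS array.

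The wider pathway was read through 9 lists of 92 further genes, of which 81 were measured. By the size rule, 2 of these were higher, 4 were lower and 75 lay within 2-fold. The shares were 2.47% higher, beside 2.94% of all measured genes, and 4.94% lower, beside 4.29%, so that neither stood far from the background. The median difference was 0.14. With spike-in scaling the median of all genes was -0.32, and the medians of all 9 lists were then below 0.

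Among BMP ligands and receptors, 1 of 13 measured genes was 2-fold higher and 1 was 2-fold lower, with a median of 0.23. Acvr2b, a type II receptor, had levels of 1.23 in the TSG-6 pool and 0.12 in the PBS pool and was 2.16-fold higher. It passed 2-fold in 11 of the 13 ways of processing, with a lowest difference of 0.72. Neo1 (neogenin), which binds hemojuvelin, had levels of -2.58 in the TSG-6 pool and -1.55 in the PBS pool. It was 2.03-fold lower, and past 2-fold in 12 of the 13 ways. Bmp7 differed by 0.92 and Bmp10 by 0.64, while Bmp5 differed by -0.51. Gdf2, which encodes BMP9, differed by 0.40. The type I receptors showed small differences, 0.25 for Bmpr1a and -0.02 for Acvr1, and so did Hfe, the haemochromatosis gene (0.23). Hjv, the BMP co-receptor hemojuvelin, had only a flagged spot on the TSG-6 array. With that spot kept, its levels were 1.07 in the TSG-6 pool and -0.24 in the PBS pool, a difference of 1.31.

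Of 8 measured SMAD mediators and BMP targets, 1 was 2-fold higher and 0 were 2-fold lower. Smad9, which encodes SMAD8, had levels of -0.25 in the TSG-6 pool and -2.01 in the PBS pool, 3.39-fold higher, and passed 2-fold in all 13 ways of processing. The mediators Smad1 (0.27), Smad5 (0.12) and Smad4 (0.05) were all within 2-fold. The relatives of Id1 lay nearer 0 than Id1 did: Id2 differed by -0.04, Id3 by 0.04 and Id4 by 0.26. Smad6, a feedback inhibitor induced by BMP, differed by -0.01. Smad7 and Atoh8, targets that follow liver iron, had outlier flags, and with flagged spots kept they differed by 0.06 and 0.55. The BMP targets on the array thus gave no common direction.

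Among 10 measured inhibitors of BMP signalling and of hepcidin, 0 were 2-fold higher and 2 were 2-fold lower, with a median of 0.10. The activin-binding follistatin gene Fst had levels of -0.41 in the TSG-6 pool and 0.82 in the PBS pool, 2.34-fold lower. Fstl1, a related secreted glycoprotein, had levels of 0.95 in the TSG-6 pool and 2.12 in the PBS pool, 2.24-fold lower. Fst and Fstl1 each passed 2-fold in 12 of the 13 ways of processing. The stress cytokine Gdf15 differed by -0.78 and the BMP antagonist Nog (noggin) by 0.36. Tmprss6, the protease that cleaves hemojuvelin and so restrains hepcidin, differed by 0.32. Erfe, the hormone by which erythroid precursors lower hepcidin, differed by 0.21 with its brighter probe and by -0.82 with the other. Bambi and Grem1 were not above background in either pool.

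In the interleukin-6 arm 0 of 7 measured genes passed 2-fold, with a median of 0.12, beside 0.08 for all measured genes. Stat3 differed by 0.50, its feedback inhibitor Socs3 by 0.50 and the receptor Il6ra by 0.47, each above 0 in all 13 ways of processing. Smaller differences were seen for Jak2 (0.12), Il6st (0.07) and Cebpa (-0.06), and for Jak1 (-0.01) with its flagged spot kept. Il6 itself was dim, with levels of -4.87 in the TSG-6 pool and -4.91 in the PBS pool. Acute phase markers, which the same signal induces, had a median of 0.33 over 6 measured genes, with Lbp at 0.69 and Saa1 at 0.07, and 0 past 2-fold. With flagged spots kept, the 10 acute phase markers had a median of 0.30, and Orm2 differed by 0.98.

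Among 9 measured genes of iron uptake and iron reduction, 0 were 2-fold higher and 1 was 2-fold lower. Steap1, of the family of metalloreductases, had levels of -3.11 in the TSG-6 pool and -0.07 in the PBS pool, 8.23-fold lower, the largest difference of the 81 measured pathway genes. Its relatives Steap2 (0.19) and Steap3 (0.27), of which Steap3 reduces iron in the endosomes that Tfrc feeds, lay within 2-fold. The other measured probe of Steap3 differed by 0.82. Steap4 had an outlier flag and differed by 0.80 with flagged spots kept. Cybrd1, the duodenal ferrireductase, differed by -0.66 with its brighter probe and by -1.26, past 2-fold, with the other. The 2 probes of the iron importer Slc11a2 disagreed, at -0.66 for the brighter and 0.93 for the other. Slc39a14, the hepatocyte importer of iron not bound to transferrin, differed by 0.18 and Slc39a8 by 0.17.

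Storage, scavenging and haem genes stayed within 2-fold. None of 6 measured storage, chaperone and iron regulatory genes passed it: the ferritin light chain Ftl1 differed by 0.08, the ferritin autophagy receptor Ncoa4 by 0.07 and the iron regulatory protein gene Aco1 by 0.20. Ireb2, which encodes the other iron regulatory protein, had a flagged spot and differed by 1.25 with it kept. Among 12 measured ferroxidases and scavengers, the haem oxygenase Hmox1 differed by -0.43 and the haem exporter Flvcr1 by -0.47, and the haemoglobin receptor Cd163 by 0.58. The ferroxidase ceruloplasmin (Cp) differed by 0.13 and the haem carrier haemopexin (Hpx) by 0.21. Haem synthesis genes had a median of -0.04 over 7 genes, with Alas1, the first enzyme in liver, at 0.23 and ferrochelatase (Fech) at 0.36. The 2 measured probes of Alas1 ran from 0.23 to 0.71. Mitochondrial iron and iron-sulphur cluster genes had a median of 0.27 over 9 genes, from -0.25 for Slc25a37 to 0.42 for Slc25a28. The 2 probes of Slc25a37 ran from -0.25 to 0.54.

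**Figure D4:**
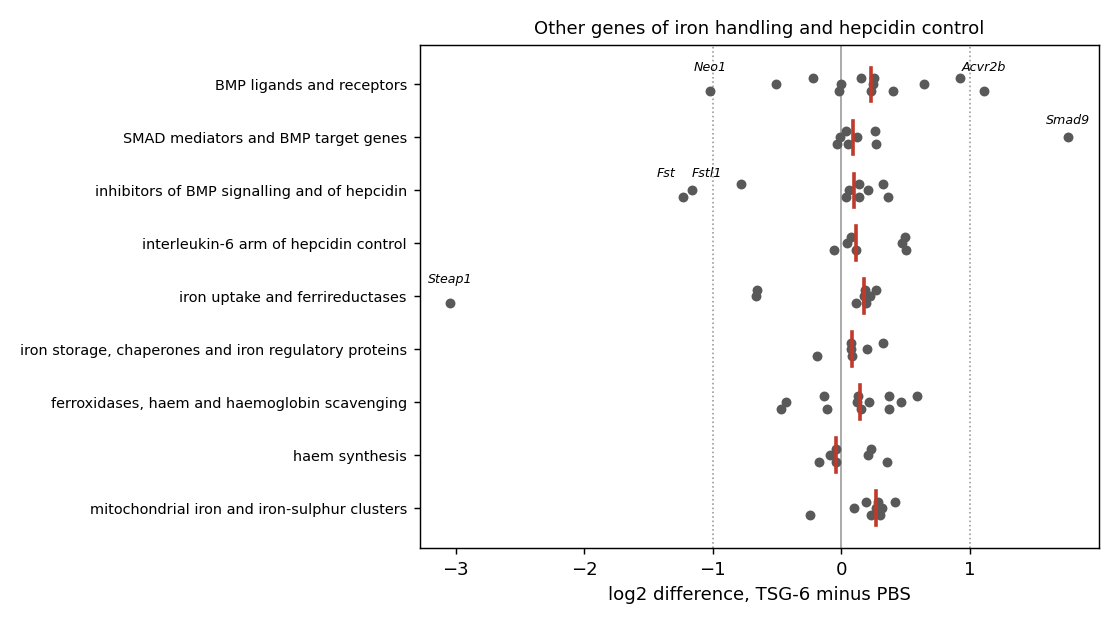
Log2 difference, TSG-6 minus PBS, of the 81 measured genes of 9 pathway lists (points, spread vertically for legibility), with the median of each list (red bar) and dotted lines at 2-fold. The 6 named genes are those past 2-fold, from Steap1 at -3.04 to Smad9 at 1.76.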

How the data were processed

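Liver RNA of 3 mice per group was mixed and labelled with Cy3 from 0.2 ug, per the labels' protocols. The deposited scanner files hold spot intensities, and their processed signal is already corrected for background and for trends over the array, per the file headers. Agilent Feature Extraction is given as 11.5.1.1 in the headers, with an array design on mm9, and as 10.7 per the submitters' processing notes. The deposited value table holds log2 processed signals minus 1 constant per array, with column medians of -3.79 for TSG-6 and -3.91 for PBS.

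Control spots were left out. Spots carrying a non-uniformity or population outlier flag were left out of levels and differences, except where the text says they were kept. The marker sums and the 75th percentile kept flagged spots. Log2 processed signals were set to the 75th percentile of the array's 59305 non-control spots, and replicate spots were averaged. A probe counted as measured where 50% or more of its spots were well above background. A gene was read from its probe detected on most arrays and then of highest mean level. Of 55681 probes, 26762 matched a gene in a RefSeq table (GRCm38.p6), used for names; promoters also came from RefSeq. The number of arrays limits the precision.

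The 10 genes, the lists and the size rule were chosen with earlier results of these data known. Named genes were the 10 members and, of each list, every gene past 2-fold or up to 4 of the largest difference; others were named after their values were seen. The 12 alternatives covered background correction (limma 3.58.1), scaling, flags, filters and probe choice. The planned normexp correction used the median spot signal in place of the mean. Some listed genes are not reported here and are in no count of their lists. The steps were tested on simulated data.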

Additional observations from a re-analysis of the deposited data

How the results depend on the processing

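Under all 12 alternatives, 1 of the 10 genes was at least 2-fold higher, Hamp2 in each. The difference of Hamp2 over that of Hamp ran from 1.23 to 1.32, but only normexp, quantile and loess could change it. No gene was 2-fold lower except with spike-in scaling, where 1 was (Tfrc). Of 92 pathway genes, 2 were 2-fold higher as reported, but 1 with the arrays scaled to their median, 1 with spike-in scaling, 3 with the percentile of unflagged spots, where Bmp7 enters, and 4 with flagged spots kept, where Hjv and Ireb2 enter. The 4 that were 2-fold lower became 7 with spike-in scaling and 1 with the percentile of unflagged spots. The median, spike-in and unflagged-spot scalings move every gene by 1 constant, which for the spike-ins is 0.40 downward. Over all genes, 446 higher and 650 lower as reported became 177 and 1499 with spike-in scaling, and 1018 and 376 with the percentile of unflagged spots. No paired analysis was possible because each group has 1 array of pooled RNA. The dim Tfrc probe, Bambi and Grem1 are limited by signal over background.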
